A study of Rattus norvegicus with 16 samples.

Results

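The genes of the 5 dopamine receptors, Drd1, Drd2, Drd3, Drd4 and Drd5, were followed across 16 arrays of rat prefrontal cortex (PFC). They were chosen by gene symbol in the platform annotation, each had 1 probe set, and they are 5 of 17245 named genes. RNA was measured on Affymetrix Rat Gene 1.0 ST arrays, which read each transcript with several probes along its length and summarise them as 1 value. All rats were adult male Sprague-Dawley animals, and no allele or drug is named for either group. The footshock (FS) group of 8 went through a session of inescapable shock that lasted 40 min (0.8 mA, 20 min of actual shock) and was killed as soon as it ended. The 8 controls were left in the home cage, so the shocks and the rest of the session procedure cannot be told apart. Each array carries 1 replicate number in its label. The tissue was whole dissected PFC, and in such bulk tissue fewer cells of a type and less RNA per cell cannot be told apart.

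Dopamine receptors are G protein-coupled receptors of 2 classes. The D1-like receptors, encoded by Drd1 and Drd5, couple to stimulatory G proteins and raise cyclic AMP, while the D2-like receptors, encoded by Drd2, Drd3 and Drd4, couple to inhibitory G proteins and lower it. Dopamine reaches the PFC in fibres from the ventral tegmental area, and its release there during stress is known to affect working memory. Drd1 and Drd2 RNA is most abundant in the striatum, where Drd1 marks the direct-pathway and Drd2 the indirect-pathway projection neurons. Both genes are also transcribed in cortical neurons at a lower level.

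The DNA just upstream of the genes is shown for 3 members, Drd2 and Drd5, which varied together between the arrays, and Drd4, which stayed within a narrow range. The sequences are the 250 bases that end next to the annotated start of each gene in RefSeq (assembly GRCr8), written 5′ to 3′ on the gene's own strand, at chr8:58605153-58605402 (plus strand) for Drd2, chr14:76703345-76703594 (minus strand) for Drd5 and chr1:205825687-205825936 (plus strand) for Drd4. Capitals mark GC boxes, GGGCGG or its reverse complement CCGCCC, the core of the site bound by Sp1-type factors.
Drd2: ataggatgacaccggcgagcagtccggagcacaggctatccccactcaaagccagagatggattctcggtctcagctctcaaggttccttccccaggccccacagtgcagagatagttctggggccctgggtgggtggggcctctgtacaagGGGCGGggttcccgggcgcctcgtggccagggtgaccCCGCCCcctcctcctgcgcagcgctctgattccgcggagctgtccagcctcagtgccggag
Drd5: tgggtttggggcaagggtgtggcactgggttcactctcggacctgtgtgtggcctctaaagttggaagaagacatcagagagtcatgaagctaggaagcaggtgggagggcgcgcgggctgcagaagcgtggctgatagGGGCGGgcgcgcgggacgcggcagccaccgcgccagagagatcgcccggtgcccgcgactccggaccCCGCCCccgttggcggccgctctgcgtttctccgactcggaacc
Drd4: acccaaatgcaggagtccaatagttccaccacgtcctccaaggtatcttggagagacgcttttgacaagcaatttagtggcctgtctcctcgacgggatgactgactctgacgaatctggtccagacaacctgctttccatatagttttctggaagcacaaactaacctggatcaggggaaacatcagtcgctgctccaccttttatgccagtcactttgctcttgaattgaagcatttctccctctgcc
All 5 members were matched in the RefSeq table. Drd2 and Drd5 each held 2 GC boxes in this window, 1 on each strand, and Drd1, Drd3 and Drd4 held 0, while 30.5% of 33469 windows of 250 bases held at least 1. The GC content was 66.0% for Drd2 and 67.2% for Drd5, against 48.4% for Drd4, 51.2% for Drd1, 38.0% for Drd3 and a median of 51.2% over all windows. No member held a TATA box (TATAAA or TTTATA, found in 12.9% of windows) or a full cyclic AMP response element (TGACGTCA, 1.59%). The window of Drd1 lies within the annotated span of that gene. These matches describe the letters of the windows only, and a link between them and how the genes varied was not tested.

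Of the 5 members, 3 passed the filter on low values (a mean over the 16 arrays above 4 on the log2 scale, which left 10423 genes), namely Drd1, Drd2 and Drd5. Drd3 averaged 3.57 and Drd4 3.39, and both are described from a fit without the filter. All values are RMA log2 expression values, on which a difference of 1 is a doubling. Because probes differ in their response, levels are compared between arrays and not between genes. 1 array stood apart: control replicate 6 had the highest Drd1, Drd2 and Drd3 values of all 16 arrays, and results are therefore also given without it. Correlations between arrays over all probe sets were between 0.981 and 0.997. Markers of cortical excitatory neurons were present, the vesicular glutamate transporter Slc17a7 averaging 10.6.

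**Figure D1:**
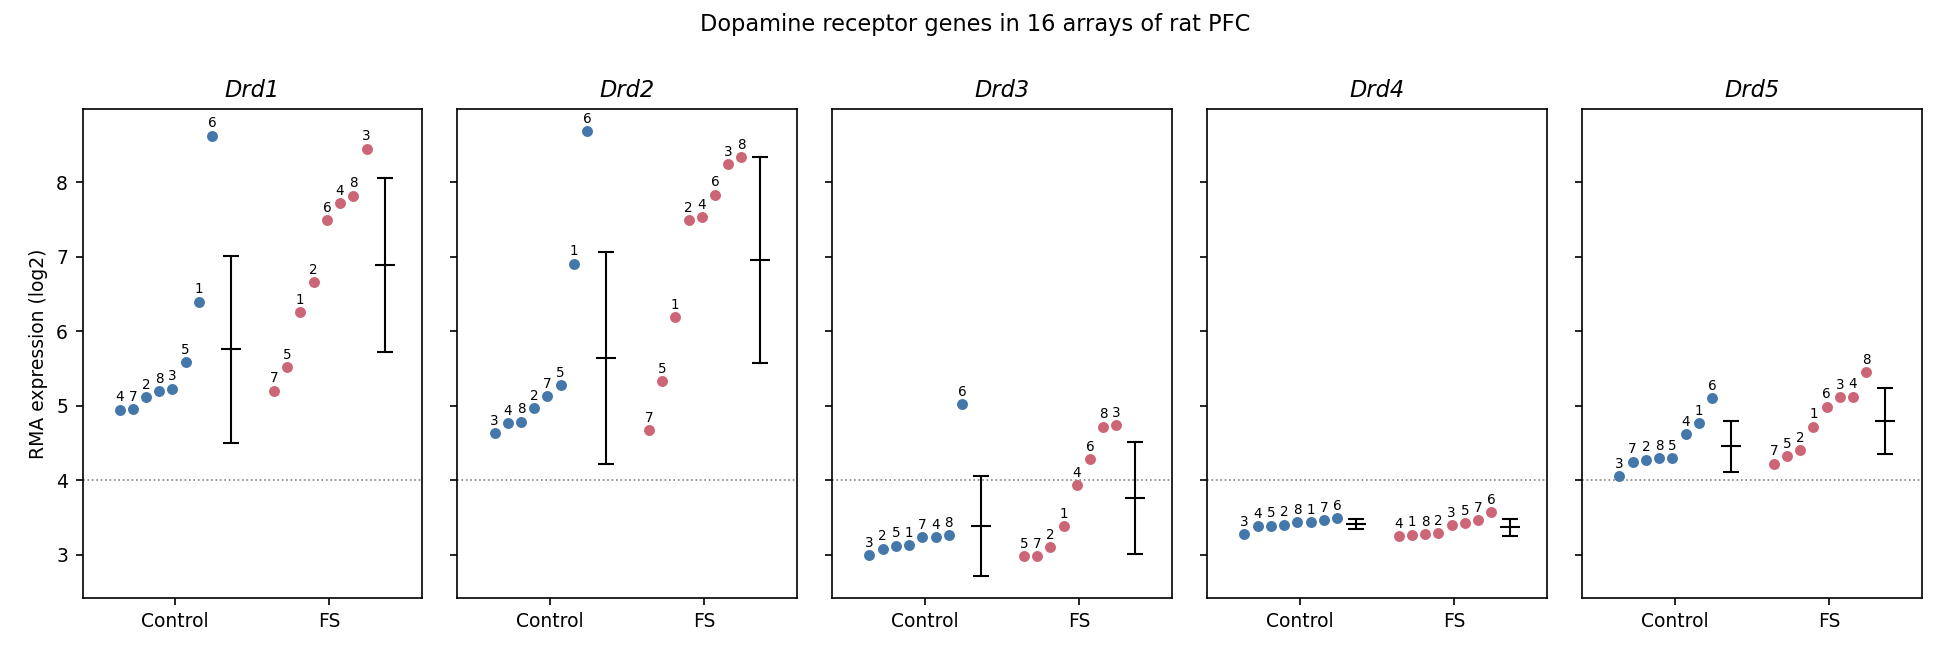
RMA log2 expression (vertical axis) of each receptor gene in the 8 control (blue) and 8 FS (red) arrays, numbered by replicate and sorted by value within each group, with the mean and SD beside the points and a dotted line at the filter value of 4. Control replicate 6 is the highest control for each gene, at 8.63 for Drd1, while Drd4 stays between 3.25 and 3.57 in all 16 arrays.

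Among the D1-like receptors, Drd1 was spread widely in both groups. In controls it ranged from 4.95 over a median of 5.21 to 8.63, and in FS rats from 5.20 over a median of 7.08 to 8.45. A set of 6 controls lay at or below 5.58, below 6 of the 8 FS arrays, but the groups overlapped over nearly their whole range and no FS array exceeded the highest control. The group means were 5.76 ± 1.25 in controls and 6.89 ± 1.17 in FS rats (SD, n = 8 per group). The difference, FS minus control, was 1.13 ± 0.54 (SE), a fold of 2.19 with a 95% interval from 0.997 to 4.83. It did not pass the threshold (limma, unadjusted p = 0.0507, adjusted p = 0.532). Across all 11352 probe sets tested, 0% had an adjusted p at or under 0.05, and the lowest adjusted p was 0.495. An exact permutation of the group labels gave p = 0.081 (two-sided, all 12870 assignments).

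Drd5, the other D1-like gene, spanned a smaller range. Its lowest, median and highest log2 values were 4.05, 4.30 and 5.10 in controls and 4.22, 4.85 and 5.45 in FS rats. Here 3 FS arrays (replicates 3, 4 and 8) exceeded the highest control, and the other 5 lay within the control range. The means were 4.46 ± 0.34 in controls and 4.79 ± 0.45 in FS rats (SD, n = 8 per group), a difference of 0.34 ± 0.18 (SE) and a fold of 1.26 (95% interval 0.971 to 1.64). This difference did not pass the threshold either (limma, unadjusted p = 0.0789, adjusted p = 0.553, exact permutation p = 0.113, two-sided).

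Among the D2-like receptors, Drd2, which is both a receptor on target cells and an autoreceptor on dopamine neurons, had the largest difference of the 5 genes. In controls its log2 values were 4.63 at the lowest, 5.05 at the median and 8.68 at the highest, and in FS rats they were 4.67, 7.52 and 8.34. Again 6 controls lay at or below 5.28 and 6 FS arrays at or above 6.19, with control replicates 1 (6.91) and 6 (8.68) among the FS values and FS replicates 5 (5.33) and 7 (4.67) next to or among the low controls. The means were 5.64 ± 1.43 and 6.96 ± 1.39 (SD, n = 8 per group). The difference was 1.31 ± 0.63 (SE), a fold of 2.48 (95% interval 0.995 to 6.20), and did not pass the threshold (limma, unadjusted p = 0.0512, adjusted p = 0.532, exact permutation p = 0.0813, two-sided).

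Drd3, a D2-like receptor best known from the ventral striatum and the islands of Calleja, was at the low end of the scale in most arrays. Control values ran from 3.00 over a median of 3.18 to 5.02, and FS values from 2.98 over 3.66 to 4.73. Only 1 control array (replicate 6) and 3 FS arrays (replicates 3, 6 and 8) lay above 4, and FS replicate 4 was just below it at 3.93, while the remaining 11 arrays were at or under 3.39. The difference of 0.38 ± 0.32 (SE, n = 8 per group; fold 1.30, 95% interval 0.820 to 2.06) did not pass the threshold in the fit without the filter (limma, unadjusted p = 0.246, adjusted p = 0.759).

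Drd4, the D2-like receptor known from the cortex and the retina, was low in every array. It ranged from 3.27 over a median of 3.42 to 3.49 in controls and from 3.25 over 3.34 to 3.57 in FS rats. No array reached 4, and the groups overlapped. The difference was -0.04 ± 0.05 (SE, n = 8 per group), a fold of 0.972 with a 95% interval from 0.903 to 1.05, and did not pass the threshold (limma without the filter, unadjusted p = 0.427, adjusted p = 0.851).

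Among all probe sets tested, the differences of Drd2 and Drd1 were the 3rd and the 6th highest of 11352, and that of Drd5 was the 177th. At 1 or more on the log2 scale, 10 probe sets (0.0881%) were higher in FS rats, and Drd1 and Drd2 were 2 of them. The spread of these genes between arrays ranked high as well. The pooled within-group SD was 1.41 for Drd2, 1.21 for Drd1 and 0.40 for Drd5, ranking 6th, 13th and 467th of 11352, while the median over all probe sets was 0.15. At an unadjusted p at or under 0.05, 9.32% of all probe sets were called in either direction and 3.65% were called higher in FS rats. None of the 3 tested members was among them, although Drd1 (unadjusted p = 0.049) and Drd2 (unadjusted p = 0.0495) would be in the limma fit without the filter, where both had an adjusted p of 0.634. With arrays weighted by their spread, all 3 members would be (unadjusted p = 0.0114 for Drd1, 0.0158 for Drd2 and 0.0286 for Drd5), and with the replicate number as a block Drd1 (unadjusted p = 0.0354) and Drd2 (unadjusted p = 0.0437), with no adjusted p at or under the threshold in either limma fit.

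The group differences depended in part on control replicate 6. Without it, the difference was 1.54 ± 0.42 (SE) for Drd1 and 1.75 for Drd2 (limma, unadjusted p = 0.00189 and 0.00376, adjusted p = 0.198 for both). It was 0.43 for Drd5 (unadjusted p = 0.0215, adjusted p = 0.249) and 0.61 for Drd3 (unadjusted p = 0.0266, adjusted p = 0.349). Drd1 and Drd2 also had an unadjusted limma p under 0.05 without control replicate 1 or FS replicate 1, 5 or 7. On leaving out any other single array it was above 0.05 for both. Without FS replicate 3, the highest FS array for Drd1, the differences were 0.91 for Drd1, 1.13 for Drd2, 0.29 for Drd5 and 0.24 for Drd3. The difference of Drd4 lay between -0.07 and -0.02 whichever array was left out.

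**Figure D2:**
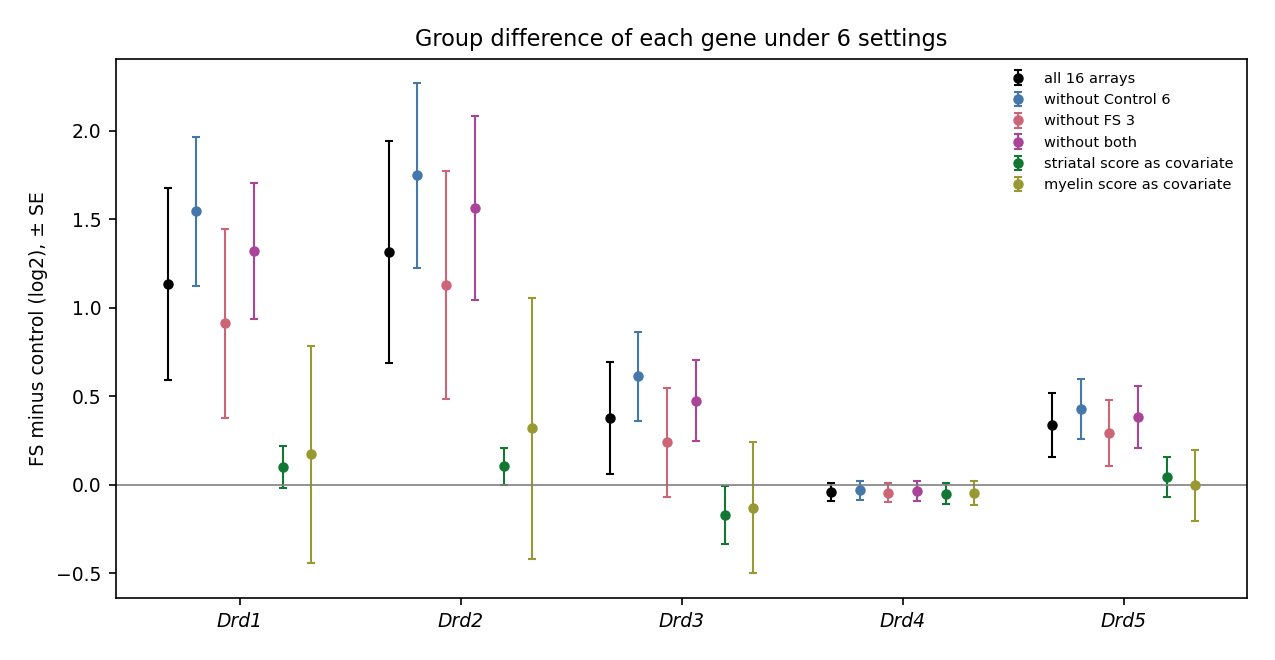
FS minus control difference (log2, vertical axis) of each receptor gene, with bars for the SE, from all 16 arrays, without control replicate 6, without FS replicate 3, without both, and with the striatal neuron or the myelin score of each array in the fit. The Drd1 difference is 1.13 over all arrays and 1.54 without control replicate 6. It is 0.10 once the striatal score, with which Drd1 had an r of 0.985, enters the fit.

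The members were then compared with each other within arrays. The same 5 arrays, control replicate 6 and FS replicates 3, 4, 6 and 8, held the 5 highest values of Drd1, Drd2, Drd3 and Drd5 alike. In these 5 arrays Drd1 was between 7.49 and 8.63 and Drd5 between 4.99 and 5.45, whereas the other 11 did not exceed 6.66 and 4.76. For Drd2 the step was small, from 7.54 in the lowest of the 5 to 7.50 in FS replicate 2. Only 2 of the 5 highest arrays for Drd4 were among them.

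Drd1 and Drd2, which most striatal projection neurons express one without the other, varied most closely together. Over the 16 arrays Pearson's r was 0.97 and Spearman's rho 0.906 (permutation p = 1e-05 for both, the smallest these permutations can give, adjusted p = 5e-05 over 10 pairs). Within controls r was 0.974 (exact permutation p = 0.00429) and within FS rats 0.951 (exact permutation p = 0.000248). Without the 2 arrays farthest from the Drd1 median, control replicate 6 and FS replicate 3, r was 0.966. These values come from arrays normalised together, and the members share the same RNA sample in each array.

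Drd5 varied with both of them. With Drd1 its r was 0.883 (permutation p = 3e-05, adjusted p = 7e-05) and its rho 0.803 (permutation p = 0.00037, adjusted p = 0.00092), and r was 0.84 within controls, 0.894 within FS rats and 0.876 without control replicate 6 and FS replicate 3. With Drd2 its r was 0.876 (permutation p = 6e-05, adjusted p = 0.0001) and its rho 0.882 (permutation p = 1e-05, adjusted p = 5e-05), and r was 0.839 without control replicate 6 and FS replicate 8. Drd3 fell into separate sets of 5 and 11 arrays, so no r over all arrays is given for it. Within the 11 low arrays its r was 0.12 with Drd1, 0.16 with Drd2 and 0.577 with Drd5, and Spearman's rho was -0.109, 0.182 and 0.473. These 11 arrays share low Drd3 values (2.98 to 3.39), so little of its variation is left among them, and the values do not bear on the 5 arrays where Drd3 was high along with the other 3 genes. Drd4 did not vary detectably with the other members over all arrays, with an r of -0.0485 with Drd1 (permutation p = 0.858), -0.0447 with Drd2 (permutation p = 0.868) and -0.0916 with Drd5 (permutation p = 0.736), each with an adjusted p of 0.868 over the 10 pairs. Its r had opposite signs in the groups. Within controls it was 0.498 with Drd1, 0.607 with Drd2 and 0.635 with Drd5 (exact permutation p = 0.187, 0.117 and 0.0929), and within FS rats it was -0.196, -0.242 and -0.271 (exact permutation p = 0.636, 0.559 and 0.512). The difference in r between the groups was not tested. Drd4 lay between 3.25 and 3.57 in all arrays, so it had little variation that could follow another gene.

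**Figure D3:**
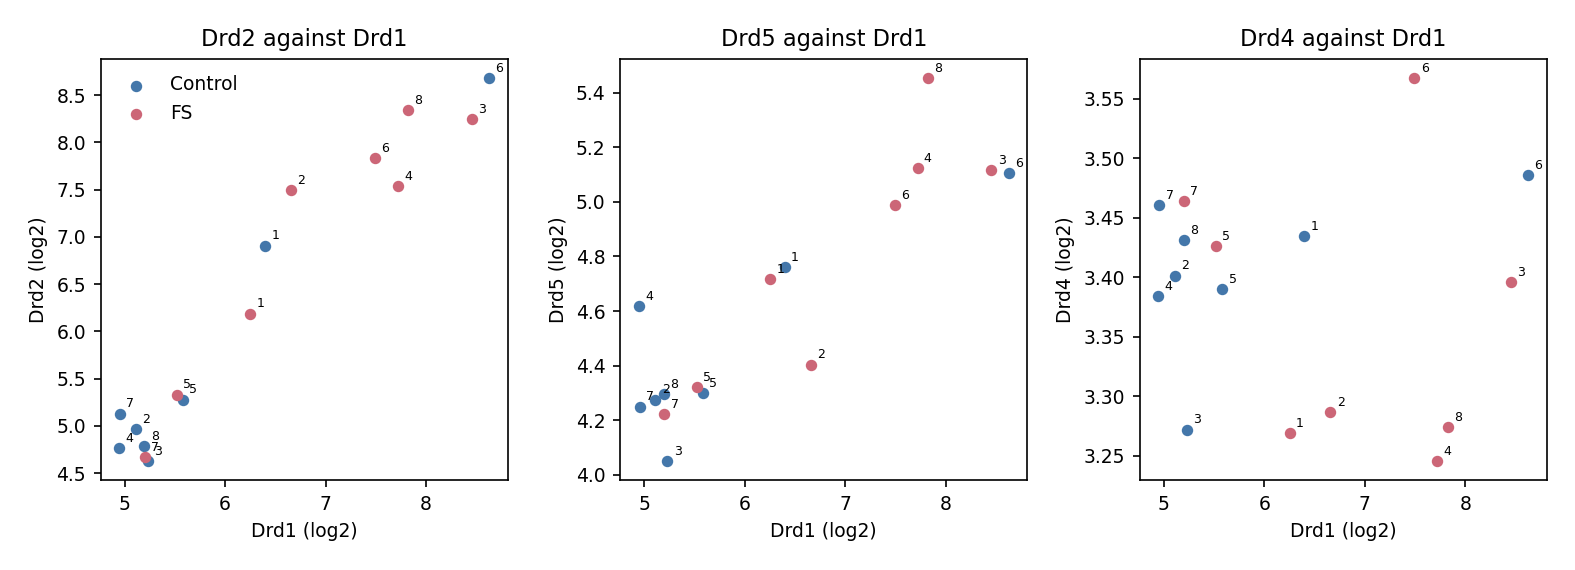
Log2 values of Drd2, Drd5 and Drd4 (vertical axes) against Drd1 (horizontal axes) in the 16 arrays, controls in blue and FS in red, numbered by replicate. Drd2 and Drd5 rise along with Drd1 in both groups (r of 0.97 and 0.883). Drd4, which spans only 3.25 to 3.57, does not (r of -0.0485).

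The FS minus control difference was also compared between members, as the within-array difference of 2 genes. For Drd1 minus Drd2 it was -0.18 ± 0.20 (SE, 95% interval -0.61 to 0.26, exact permutation p = 0.392, adjusted p = 0.435 over 10 pairs), so an unequal difference was not detectable. Drd1 minus Drd2 ranged from -0.84 in FS replicate 2 to 0.60 in control replicate 3, and the groups overlapped. For Drd1 minus Drd5 it was 0.80 ± 0.45 (95% interval -0.16 to 1.76, exact permutation p = 0.0971) and for Drd2 minus Drd5 0.98 ± 0.54 (95% interval -0.19 to 2.14, exact permutation p = 0.0912), both with an adjusted p of 0.139. No pair passed the adjusted threshold over all arrays. Without control replicate 6, the pairs of Drd1 and of Drd2 with Drd3, Drd4 or Drd5 had differences between 0.93 and 1.78 and passed it (6 pairs, adjusted p from 0.0311 to 0.0407, exact permutation), so these calls rest on leaving out that array.

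Genes of dopamine supply gave little signal in this tissue, where dopamine fibres arrive but dopamine neurons do not lie. Of 10 listed genes, 2 were tested, the amine-degrading enzymes Maoa (-0.03 ± 0.08, SE) and Maob (-0.0011 ± 0.09), and neither passed the test. Tyrosine hydroxylase Th, the rate-limiting enzyme of dopamine synthesis, averaged 4.00, just under the filter, with a difference of -0.47 ± 0.22 (limma without the filter, unadjusted p = 0.0446, adjusted p = 0.633). Ddc, Gch1, Slc18a2, Slc6a3, Slc6a2 and Dbh were below the filter too.

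Downstream of the receptors, Gng7, Gnal, Adcy5, Ppp1r1b and Rgs9 had differences between 0.67 and 1.14, and the median of each list was near 0. Of 15 tested G protein subunits and adenylyl cyclases, 7 had higher and 8 lower FS means, the median difference being -0.01 beside -0.02 over all probe sets. Over all probe sets tested, 42.5% had a higher FS mean, the share to set beside such counts here and below. The largest were those of the gamma subunit Gng7 (0.91 ± 0.42, SE), of Gnal, the stimulatory alpha subunit that Drd1 uses in striatum (0.79 ± 0.38), of the cyclase Adcy5 (0.67 ± 0.30) and of the cyclase Adcy1 (-0.20 ± 0.17). Gng7 and Adcy5 had an unadjusted p at or under 0.05, and 0 of the 15 passed the adjusted threshold (lowest limma adjusted p = 0.523). Gnas was below the filter and Adcy9 unnamed.

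In the protein kinase A and DARPP-32 branch, 6 of 13 tested genes had higher and 7 lower means in FS rats, 0 were called at either threshold, and the median difference was -0.01. Ppp1r1b, which encodes DARPP-32, had 0.78 ± 0.37 (SE), Arpp21 -0.24 ± 0.14, Cdk5 -0.16 ± 0.08 and the kinase subunit Prkar1b -0.13 ± 0.11. Among 18 regulators and partners of the receptors, 7 had higher and 11 lower means, with a median of -0.03. Rgs9, which speeds the turning off of G proteins in striatal neurons, had 1.14 ± 0.55, Rgs4 -0.44 ± 0.27, the scaffold Flna 0.44 ± 0.24 and Rgs2 0.23 ± 0.10. At an unadjusted p at or under 0.05, Rgs2 was called higher and the calcium sensor Ncs1 lower (-0.10 ± 0.05), the latter named after its value was seen, and 0 of these 18 passed the adjusted threshold.

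Marker lists of cell types were read in the same arrays, as a score per array, for which each tested gene of a list was centred on its 16-array mean and the centred log2 values were averaged. Striatal medium spiny neuron markers without the receptors had higher FS means for 13 of 13 tested genes (42.5% of all probe sets did). Their differences ran from 0.08 to 1.14 with a median of 0.64. At an unadjusted p at or under 0.05, 2 were called higher (3.65% of all probe sets were), and 0 passed the adjusted threshold. The list includes Gng7, Gnal, Adcy5, Ppp1r1b and Rgs9. Genes of a list can vary together across arrays, as Gng7, Rgs9 and Adcy5 did with Drd2, so they are not 13 separate observations. The score ran from -0.69 to 1.32 in controls, highest in control replicate 6, and from -0.74 to 1.05 in FS rats. Markers of the direct pathway had higher means for 4 of 5 tested genes (Tac1, the substance P precursor, 0.92 ± 0.48, SE), with a median of 0.05 and Isl1 below the filter, and those of the indirect pathway for 4 of 4 (the adenosine receptor Adora2a 1.10 ± 0.59), with a median of 0.57.

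Drd1, Drd2 and Drd5 followed the striatal score closely. Their r over 16 arrays was 0.985, 0.991 and 0.872, and their rho 0.912, 0.982 and 0.888 (permutation p between 1e-05 and 5e-05, adjusted p between 6e-05 and 0.000214 over 60 relations). Without control replicate 6 and FS replicate 3, r was 0.976, 0.995 and 0.855. The r of Drd4 with this score was -0.00856 (permutation p = 0.974). No r is given for Drd3, but the 5 arrays where it was high also had the 5 highest scores, from 0.50 to 1.32. The highest score of the other arrays was 0.45, in FS replicate 2. Drd1 had an r of 0.973 with the direct-pathway and 0.982 with the indirect-pathway score, and Drd2 of 0.93 and 0.986 (permutation p = 1e-05 for each). Both scores were highest in the same 5 arrays, so these values cannot tell whether a gene follows 1 pathway only. In the direct-pathway score, Tac1 and Pdyn varied most (SD within controls 1.10 and 0.94). Chrm4, Eya1 and Sfxn1 had an SD of 0.29 or less there and weigh little in it.

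The score of 6 cortical excitatory neuron markers ran the other way. All 6 had lower means in FS rats, with a median of -0.35, 0 called at either threshold, and the score ranged from -0.92 to 0.54 in controls and from -1.11 to 0.41 in FS rats. Its r was -0.908 with Drd1, -0.889 with Drd2 and -0.879 with Drd5, and its rho -0.853, -0.915 and -0.912 (permutation p between 1e-05 and 9e-05 for both measures). Oligodendrocyte markers had higher means for 12 of 12 tested genes, with a median difference of 0.40. All 12 were called higher at an unadjusted p at or under 0.05 (3.65% of all probe sets were), and 0 passed the adjusted threshold. The score was -0.57, -0.57 and -0.62 in control replicates 2, 3 and 7, from -0.10 to 0.21 in the other 5 controls and from -0.05 to 0.37 in FS rats, so those 3 controls lay apart and the others were within or close to the FS range. The oligodendrocyte score had an r of 0.642 with Drd1, 0.602 with Drd2 and 0.653 with Drd5 (permutation p between 0.00622 and 0.0125). Both the score and these genes had higher FS means, so part of this r is the group difference. With each group centred on its mean, r was 0.518, 0.461 and 0.556, for which no p-value was computed. Interneuron, deep layer, astrocyte, microglia and endothelium lists had median differences between 0.0022 and 0.17, and the meningeal list one of 0.42 with an r of 0.0561 with Drd1 (permutation p = 0.838).

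**Figure D4:**
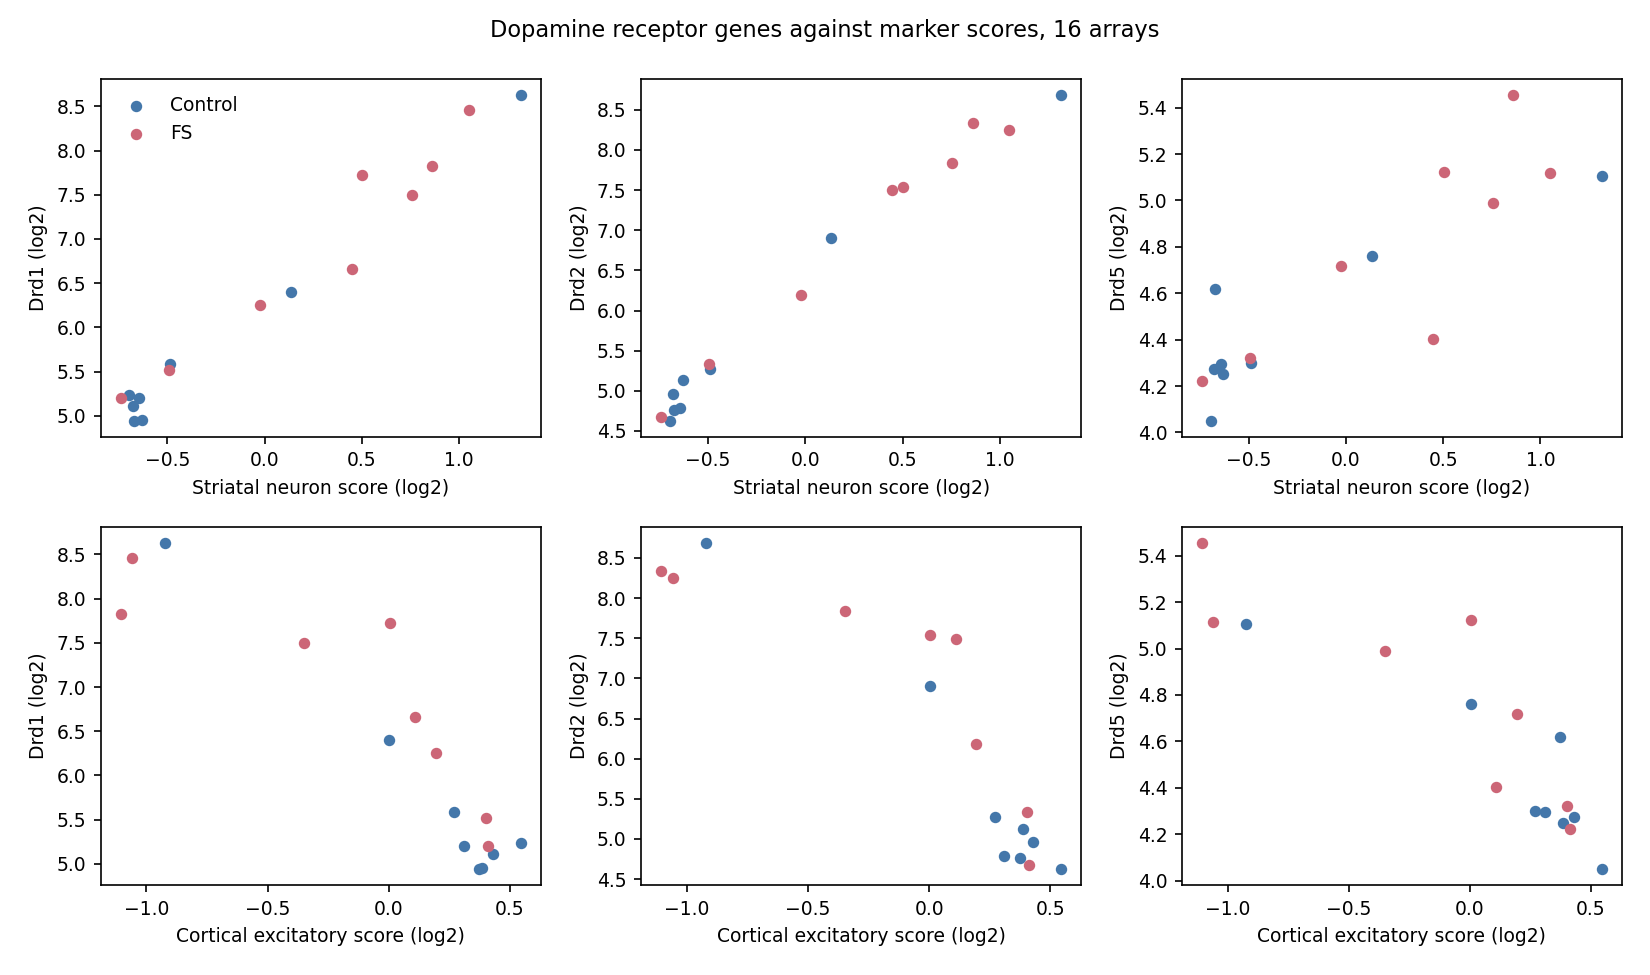
Log2 values of Drd1, Drd2 and Drd5 (vertical axes) against the striatal neuron score (upper row) and the cortical excitatory score (lower row) of the 16 arrays, controls in blue and FS in red. Drd2 lies along a line with the striatal score in both groups (r of 0.991) and runs against the cortical excitatory score (r of -0.889).

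With the striatal score added to the fit as a covariate, the difference between FS and control rats was 0.10 ± 0.12 (SE) for Drd1, 0.11 ± 0.10 for Drd2, 0.04 ± 0.11 for Drd5 and -0.17 ± 0.16 for Drd3, and the residual SD of Drd1 was 0.24 in place of 1.21. Drd1 and Drd2 followed this score almost exactly (r of 0.985 and 0.991). Little of their difference or of their residual SD could therefore remain in this fit. With the myelin score the difference was 0.17 ± 0.61 for Drd1, 0.32 ± 0.74 for Drd2, -0.0035 ± 0.20 for Drd5 and -0.13 ± 0.37 for Drd3. The residual SD of Drd1 was 1.08 in that fit, close to the 1.21 without a score. Drd4 was at -0.05 with either score. The part of striatal, cortical or myelin RNA in the group differences of the receptors was not tested.

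The genes most like each member were sought among 10420 tested genes, by Pearson's r over the 16 arrays after each group was centred on its mean. Drd1 was most like Tac1 (0.991), the phosphodiesterase Pde1b (0.99), Zswim6 (0.984), Mctp1 (0.982) and Plppr1 (0.977), and least like Ephb2 (-0.965), Znfx1 (-0.955) and Tmem178a (-0.947). Drd2 was most like Gng7 (0.991), Adora2a (0.988), Rgs9 (0.988), the enkephalin precursor Penk (0.981) and Adcy5 (0.979), and least like Dpp9 (-0.957), Ephb2 (-0.954) and Aagab (-0.935). Drd5 was most like the neuropeptide gene Cartpt (0.963), Peli1 (0.959), the GABA-synthesising enzyme Gad1 (0.942), Zc3h12c (0.932) and the neurotensin gene Nts (0.924), and least like Nrg3 (-0.935), Lhfpl6 (-0.932) and Mtmr12 (-0.931). The number of genes with an r above 0.9 was 95 for Drd1, 64 for Drd2, 28 for Drd5 and 0 for Drd4. Drd3 was left out here because its arrays fell into separate sets, not because it lacked such genes.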

How the data were processed

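PFC RNA of 8 FS and 8 control rats was measured on 16 arrays. The authors used oligo (version 1.58.0) to import the scans and RMA to normalise all arrays jointly, so the deposited values are log2 expression values in which a change shared by most genes on an array is lost. The table held 29214 probe sets between 1.52 and 12.79, with array medians from 4.05 to 4.15. The number of arrays limits the precision. By the platform annotation 18644 probe sets had 1 gene symbol, 962 several and 9608 none here, and 18460 matched RefSeq (GRCr8) by gene ID with 0 symbols changed. That assembly served for names and upstream sequences only.

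Groups and replicate numbers came from the sample titles. By the study's methods each group was 8 animals, so p-values measure the spread between rats. Probe sets of 1 symbol with a mean above 4 were tested (11352 probe sets of 10423 genes), which is how the authors' filter was read. FS and control were compared with limma (version 3.58.1, R version 4.3.3, lmFit and eBayes, group only) with Benjamini-Hochberg adjustment over all probe sets, at 0.05. Members below the filter were read from the same fit over all named probe sets. Correlations were tested with 100000 permutations and single differences exactly. The limma fit and the permutation tests were also tested on simulated data.

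The members and the lists were chosen with earlier results of these data known. Named genes are the members, the 5 most and 3 least like Drd1, Drd2 and Drd5, and up to 4 genes of each list with the largest differences or below the filter, besides Slc17a7 as a check of the tissue and Ncs1, named after its value was seen. Alternatives were other filters and centrings, other variance models, a block for the replicate number, arrays left out singly, and marker scores as covariates. Some items of the lists are not reported here.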

Additional observations from a re-analysis of the deposited data

Results flagged for a closer look

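Control replicate 6 was far above the other 7 controls for Drd1 (8.63 against 6.40 in the next highest), the gap being 0.605 of the range of the 8 controls, past the 95% critical value of Dixon's test. For Drd3 the gap was 0.868 of the range (5.02 against 3.26). The striatal neuron score of the same array was apart too, at 1.32 against 0.13, a gap of 0.588 of the range. Over 14 groups examined, chance flags about 1 in 20, and these 3 values come from 1 array.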

How the results depend on the processing

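The differences of Drd1 and Drd2 kept their direction and stayed short of the adjusted threshold under all 27 alternatives run, with limma adjusted p between 0.198 and 0.999, and Drd4 kept its direction too (adjusted p 0.75 to 1). Other filters, another variance prior and the replicate block cannot move a difference of group means, so these alternatives bear on the p-values only. For Drd3 and Drd4 the other filters gave the same fit without the filter and tested nothing further. Drd3 turned to -0.17 when the striatal score was a covariate and to -0.13 when the myelin score was, which also turned Drd5 to -0.0035. The cause was not tested. Leaving out each array in turn gave 0.91 to 1.54 for Drd1, 1.12 to 1.75 for Drd2, 0.24 to 0.61 for Drd3, -0.07 to -0.02 for Drd4 and 0.24 to 0.43 for Drd5, the highest of Drd1, Drd2, Drd3 and Drd5 without control replicate 6. The count of called probe sets ranged from 0 to 1 on leaving out an array and was 1 without both control replicate 6 and FS replicate 3, a choice made after seeing the data, and no member was called.

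The labels name no litter, batch or day for a replicate number. Deviations of same-numbered arrays correlated from -0.313 to 0.492, highest for replicates 6 and 7 and above 0.1 in 4 of 8 pairs, and 1 of 8 controls and 2 of 8 FS arrays correlated best with their own number, so the numbers were not taken as pairs. With the replicate number as a block, Drd1 was at 1.13 (limma, unadjusted p = 0.0354, adjusted p = 0.45), which a block with 1 array of each group cannot change. In that fit 0 probe sets were called, with 1242 in place of 1058 at an unadjusted p at or under 0.05.

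The correlations of Drd4 had no settled sign. By Spearman's rho that with Drd2 was 0.0412. With each group centred they were 0.0619 (Drd1), 0.0661 (Drd2) and 0.0029 (Drd5), with arrays centred on their medians 0.167, 0.202 and 0.127, and on leaving out each array -0.214 to 0.0761, -0.224 to 0.0808 and -0.253 to 0.0967. Without both control replicate 6 and FS replicate 3 those with Drd1 and Drd2 were -0.283 and -0.227. Between members, the difference of Drd3 minus Drd5 ranged from -0.050 to 0.18 on leaving out each array, Drd1 minus Drd3 from 0.66 to 0.93, Drd1 minus Drd4 from 0.96 to 1.57, Drd1 minus Drd5 from 0.62 to 1.12, Drd2 minus Drd3 from 0.76 to 1.15, Drd2 minus Drd4 from 1.14 to 1.78 and Drd2 minus Drd5 from 0.83 to 1.32. Drd3 and Drd4 lie near the low end of these arrays' values, which limits what their differences and correlations can show.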
